A study of Drosophila melanogaster with 62 samples.

Results

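The genes described here are 104 *Drosophila melanogaster* genes whose FlyBase symbol is an annotation number (CG followed by digits), though some have other names as synonyms. The RNA of these 104 genes was present in the early embryo of the HisRFP control and gone by mid nuclear cycle (NC) 14. They were chosen from measured values. The count of each gene was divided by the total count of its library and scaled to 1000000 (CPM), and means were taken over the HisRFP libraries of a stage. A gene was a member if its HisRFP mean was at least 20 CPM at NC10, above 25% of the oocyte mean, and had dropped by later NC14 to 6.25% of the NC10 mean or less. Of 17510 genes in the count table, 6047 had a CG symbol and 104 of these passed. A further 286 genes with another symbol met the same CPM conditions and are used as a comparison set.

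Maternal RNA drives the first nuclear cycles of the fly embryo, which run in a common cytoplasm without cell membranes, and most of it is then destroyed in waves as the embryo starts its own transcription. Brain tumor (BRAT) is an RNA-binding protein that contacts RNA through its NHL domain, acts with Pumilio and Nanos as a translational repressor, and has been tied to the removal of maternal RNA. Smaug, which recruits the CCR4-NOT deadenylase, and the zygotic miR-309 cluster are other known agents of this clearance.

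Each library was made from 1 oocyte or 1 embryo. Embryos were staged by imaging histone-tagged nuclei, and oocytes by their morphology. The bratmut samples came from mothers carrying the deficiency Df(2L)TE37C-7 over the female-sterile allele fs1, which changes an amino acid in the NHL domain, together with a His2Av-RFP transgene on chromosome 3. The brat het samples came from mothers with 1 of these lesions over the CyO balancer, also with His2Av-RFP, and which lesion each library carried is not given. The HisRFP samples came from w; His2Av-RFP(III) mothers with no brat lesion. The genotype is that of the mother, and all 3 groups share the transgene. There were 23 bratmut, 16 het and 23 HisRFP libraries, with replicates A to D at the oocyte, NC10, NC12, early NC14 and later NC14 stages and A, C and D at NC13. Het libraries exist for oocytes, NC10, NC12 and later NC14. The study set het embryos aside as controls because they too differed from HisRFP in gene expression, and used HisRFP instead.

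Library totals ran between 4000899 and 41029921 counted reads (median 13015435.5) and were at least 15882592 in each NC13 and early NC14 library. Because fs1 encodes a changed protein, the level of brat RNA does not check the labels. It averaged 885 CPM in bratmut and 90.1 CPM in HisRFP embryos at early NC14. Eggshell genes, made by the follicle cells around the oocyte, summed to 55.9 to 219 CPM in bratmut, 18009 to 56317 CPM in het and 2.62 to 30058 CPM in HisRFP oocytes, so the oocyte libraries held very unequal amounts of follicle cell RNA. HisRFP oocyte values entered the choice of members, and what follicle cell RNA did to that choice was not tested.

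The summed level of the 104 members gives the course of their loss in each genotype. In bratmut it averaged 14076 ± 904 CPM in oocytes, 11129 ± 2116 at NC10, 7343 ± 1417 at NC12, 4190 ± 1520 at NC13, 2643 ± 174 at early NC14 and 453 ± 66.8 at later NC14 (SD, n = 4, and n = 3 at NC13). Het embryos had 14484 ± 639 CPM in oocytes, 10939 ± 826 at NC10, 6363 ± 1079 at NC12 and 379 ± 160 at later NC14 (SD, n = 4). HisRFP embryos had 13547 ± 1049, 10800 ± 291, 6443 ± 1422, 2378 ± 1200, 910 ± 305 and 354 ± 199 CPM over the same 6 stages (SD, n = 4, and n = 3 at NC13). The 3 genotypes began at like sums, and bratmut and HisRFP separated fully at 1 stage. At early NC14 the 4 bratmut embryos lay between 2413 and 2819 CPM, and the 4 HisRFP embryos lay between 612 and 1323 CPM. The HisRFP values of oocytes, NC10 and later NC14 chose the genes and are given as a description only. CPM is a share of a library, so less RNA of these genes and more RNA of others in an embryo cannot be told apart.

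**Figure D1:**
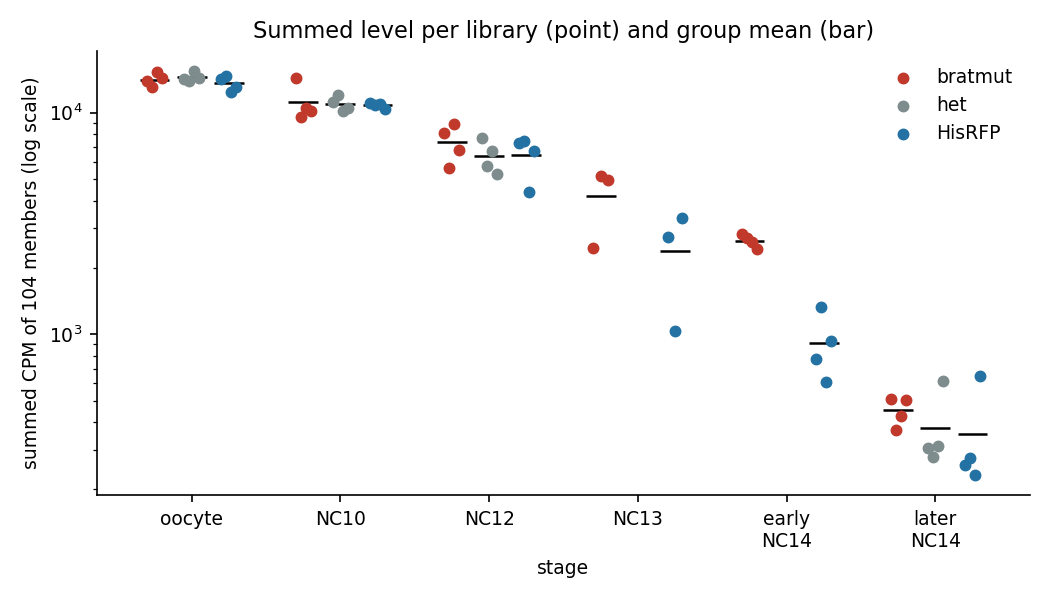
Summed CPM of the 104 members (log scale) by stage, with bratmut, het and HisRFP side by side, 1 point per library and a line at the group mean. Bratmut and HisRFP points are apart at early NC14 (2413 to 2819 against 612 to 1323 CPM) and mixed at NC10 and NC12.

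Single libraries stood apart from their group within some stages. At NC13 the bratmut embryos had 2438, 5158 and 4974 CPM of member RNA (A, C and D), and the HisRFP embryos had 2755, 1035 and 3344 CPM. The summed level of 18 early zygotic genes in the same libraries was 4463, 1833 and 2179 CPM in bratmut and 1738, 5027 and 1987 CPM in HisRFP. So bratmut A and HisRFP C, the lowest of their groups in member RNA, were the highest in early zygotic RNA. At NC12 the lowest HisRFP embryo, a different embryo also labelled C, had 4367 CPM of member RNA against 6683 to 7441 CPM in the others. Its early zygotic sum was 1830 CPM against 927 to 1066 CPM. At early NC14 the early zygotic sums overlapped, at 3697 to 5664 CPM in bratmut and 3689 to 7031 CPM in HisRFP. The part of embryo age within a stage in the differences below was not tested.

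Bratmut NC10 A had 14250 CPM of member RNA against 9582 to 10514 CPM in the other 3 bratmut embryos, and was the highest of the 4 for 75 of 104 members. At later NC14, replicate D was the highest library for 47 of 104 members in bratmut, 74 in het and 94 in HisRFP. The D sums were 618 CPM in het, against 279 to 314 CPM in the other het embryos, and 651 CPM in HisRFP, against 231 to 277 CPM in the other HisRFP embryos.

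To follow each gene on its own scale, its mean level at each stage was expressed as a share of its mean at NC10 in the same genotype. The median member kept 59.4% of its NC10 level at NC12 in bratmut, 54.6% in het and 58.0% in HisRFP. At NC13 the medians were 22.7% in bratmut and 14.2% in HisRFP. By early NC14 they were 8.79% and 4.58%. Leaving out bratmut NC10 A, which raised the level that bratmut shares were taken from, the bratmut medians became 24.8% at NC13 and 9.65% at early NC14. At later NC14 the medians were 3.17% in bratmut, 3.31% in het and 3.53% in HisRFP, the last being limited by the rule. Every HisRFP share has as its base the HisRFP NC10 mean, which the rule used, and the bratmut NC10 mean was not used, so the shares of the 2 genotypes are set side by side as a description.

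Counting genes rather than medians, 15 members still had over 50% of their NC10 level in bratmut at early NC14, against 3 in HisRFP, and 25 had over 25%, against 7 in HisRFP. Of the 104 members, 4 first reached 25% of the NC10 level at NC12 in bratmut, 53 at NC13, 23 at early NC14 and 24 at later NC14. In HisRFP these counts were 8, 67, 22 and 7. All 104 members had reached 25% by later NC14 in bratmut. The 286 comparison genes had like medians at early NC14, 8.81% in bratmut and 4.52% in HisRFP. Unlike the members, 10 of the 286 (3.5%) had not reached 25% of the NC10 level by later NC14 in bratmut.

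**Figure D2:**
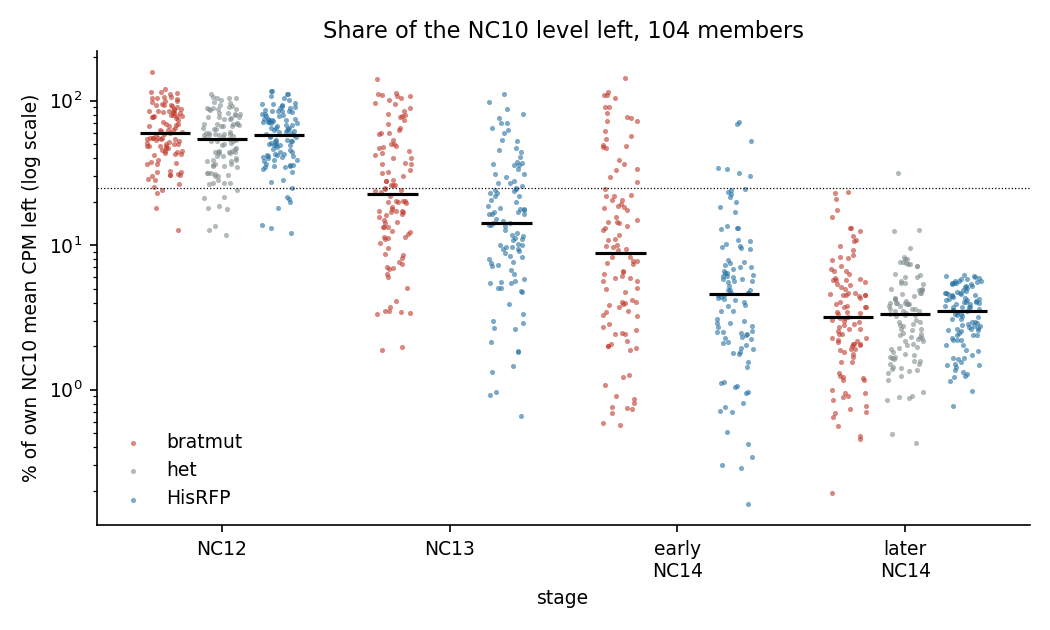
Percent of the gene's own NC10 mean CPM left at each later stage (log scale), 1 point per member, with a bar at the median and a dotted line at 25%. Medians at early NC14 are 8.79% in bratmut and 4.58% in HisRFP, and 15 bratmut points against 3 HisRFP points lie above 50%.

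The difference in level between bratmut and HisRFP embryos was tested at the 3 stages the rule did not use, with edgeR's quasi-likelihood test over all genes with at least 50 reads and Benjamini-Hochberg adjustment. A gene is called here when its adjusted p is under 0.05 and its log2 fold change passes 1 in either direction. Replicates are separate embryos, and the labels do not say whether they came from separate mothers, so the p-values measure the spread between these embryos. Genes not cleared by later NC14 in HisRFP could not be members, while genes not cleared in bratmut could. Counts over the members and over the comparison genes are therefore tilted toward higher levels in bratmut. All genes tested were not chosen by the rule.

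Early NC14 held most of the difference. Of 103 members tested, 33 were called higher in bratmut, where 9.47% of all genes tested were, and 2 were called lower, where 4.35% were. The median log2 fold change was 0.86 over the members and -0.06 over all genes tested. For 41 members every bratmut embryo lay above every HisRFP embryo (16.2% of all genes tested), and for 2 every bratmut embryo lay below (12.7% of all genes tested). Of the 285 comparison genes tested, 109 were higher and 1 lower, with a median log2 fold change of 1.0. Of the 33 higher calls, 31 were made under every alternative tried, and of the 2 lower calls both were. The untested member is CG2129, which had under 1 CPM in all early NC14 embryos.

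**Figure D3:**
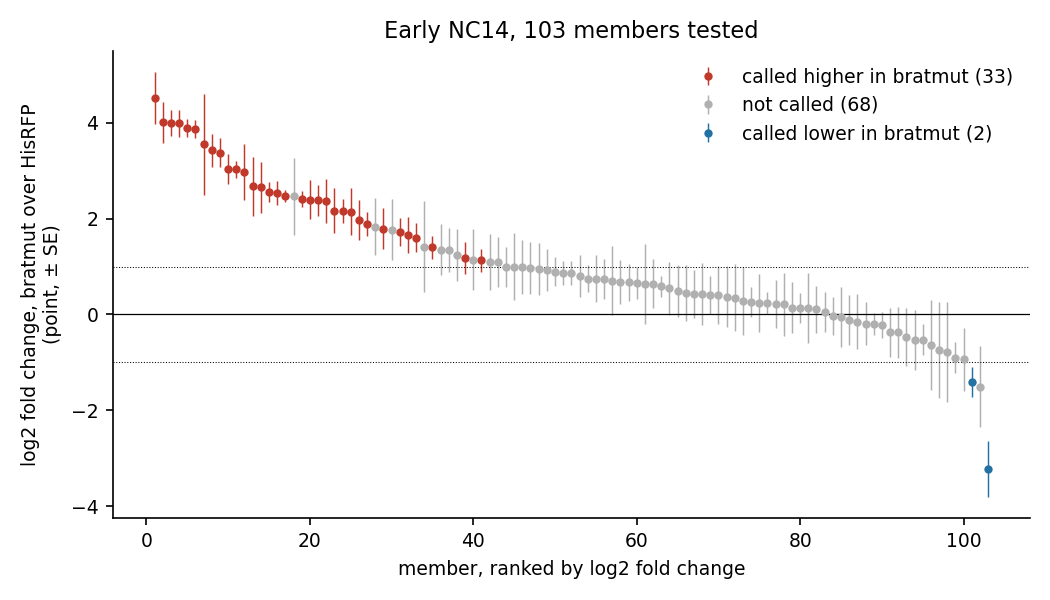
Log2 fold change at early NC14, bratmut over HisRFP, for the 103 members tested, ranked, with bars of 1 SE and dotted lines at 1 and -1. The 33 genes called higher lie to the left, up to 4.51, and the 2 called lower are at -1.41 and -3.22.

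CG32772 (FBgn0052772, X, 4909102 to 4915161, BDGP6.54 assembly) had the largest difference. Its level at early NC14 was 61.4, 59.9, 43.1 and 47.0 CPM in the bratmut embryos A to D, and 0.668, 2.31, 0.971 and 5.34 CPM in the HisRFP embryos. The lowest bratmut embryo was far above the highest HisRFP embryo. The log2 fold change was 4.51 (SE 0.55, edgeR adjusted p = 0.00035).

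CG7208 (FBgn0038575, 3R, 18183656 to 18185715) had 126, 107, 126 and 120 CPM in bratmut and 4.44, 10.9, 2.36 and 12.5 CPM in HisRFP embryos. Its bratmut values were tightly grouped and did not overlap those of HisRFP (log2 fold change 4.01, SE 0.43). Of its exon bases 10.4% are shared with Arp5, and since reads were counted without strand, those bases cannot be assigned to either gene.

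CG17292 (FBgn0032029, 2L, 8370454 to 8374250), which encodes a predicted lipase, had 41.7, 51.1, 42.2 and 49.7 CPM in bratmut and 1.45, 3.23, 2.59 and 4.14 CPM in HisRFP embryos. The groups were well apart (log2 fold change 4.0, SE 0.27, edgeR adjusted p = 9.34e-06). It shares 10.4% of its exon bases with an annotated antisense RNA. CG5966, another predicted lipase, had 57.7, 48.7, 49.7 and 46.6 CPM in bratmut and 5.19, 7.63, 4.99 and 6.68 CPM in HisRFP, again with no overlap.

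CG16972 (FBgn0032481, 2L, 13197102 to 13203295) had 159, 120, 112 and 94.1 CPM in bratmut and 4.40, 8.64, 5.82 and 11.6 CPM in HisRFP embryos. Even its lowest bratmut embryo was several times the highest HisRFP one (log2 fold change 3.99, SE 0.28).

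CG10237 (FBgn0032783, 2L, 19435850 to 19442727) encodes a protein with a CRAL-TRIO lipid-binding domain and was the most abundant of these genes. Bratmut embryos had 276, 264, 253 and 254 CPM and HisRFP embryos had 13.8, 24.9, 13.8 and 17.2 CPM. The spread within bratmut was small beside the gap between the groups (log2 fold change 3.89, SE 0.18, edgeR adjusted p = 1.14e-06). Between NC12 and early NC14 its log2 change was -0.20 (SE 0.08) in bratmut and -3.18 (SE 0.20) in HisRFP, so the RNA stayed near its NC12 level in bratmut while it was lost in HisRFP.

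CG18586 (FBgn0035642, 3L, 5873311 to 5875466) had 33.7, 40.7, 29.2 and 36.0 CPM in bratmut at early NC14 and 2.04 to 2.63 CPM in HisRFP embryos, with no overlap (log2 fold change 3.86, SE 0.19). It shares 10.2% of its exon bases with CG5568. Its later course set it apart. At later NC14 it had 19.7, 12.6, 10.8 and 16.3 CPM in bratmut, 22.1, 26.7, 15.7 and 21.3 CPM in het and 0.807 to 1.80 CPM in HisRFP embryos. The bratmut and het values overlapped, both far above HisRFP, whose later NC14 values the rule had used. Its bratmut to het difference at later NC14 was a log2 fold change of -0.50 (SE 0.25, edgeR adjusted p = 0.297).

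CG14971 and CG8778 were called higher under every alternative too. CG14971 (FBgn0035449, 3L, 3468023 to 3471309) had 114, 95.7, 101 and 84.1 CPM in bratmut and 7.08, 15.8, 3.93 and 9.72 CPM in HisRFP embryos (log2 fold change 3.43). CG8778 had 27.9, 39.2, 26.9 and 27.6 CPM in bratmut and 1.73, 3.52, 1.89 and 4.51 CPM in HisRFP embryos (log2 fold change 3.37). Neither gene's groups overlapped. CG32795, whose fold change was 3.55 on the log2 scale, was the only called member with overlapping groups. It had 4.87, 3.58, 61.5 and 60.8 CPM in bratmut and 2.59, 1.01, 5.87 and 1.29 CPM in HisRFP embryos, so 2 bratmut embryos were high and 2 were near the HisRFP level. Its adjusted p of 0.0377 (edgeR) became 0.0962 without bratmut C and 0.0901 without bratmut D, and missed 0.05 without HisRFP A, B or D too.

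**Figure D4:**
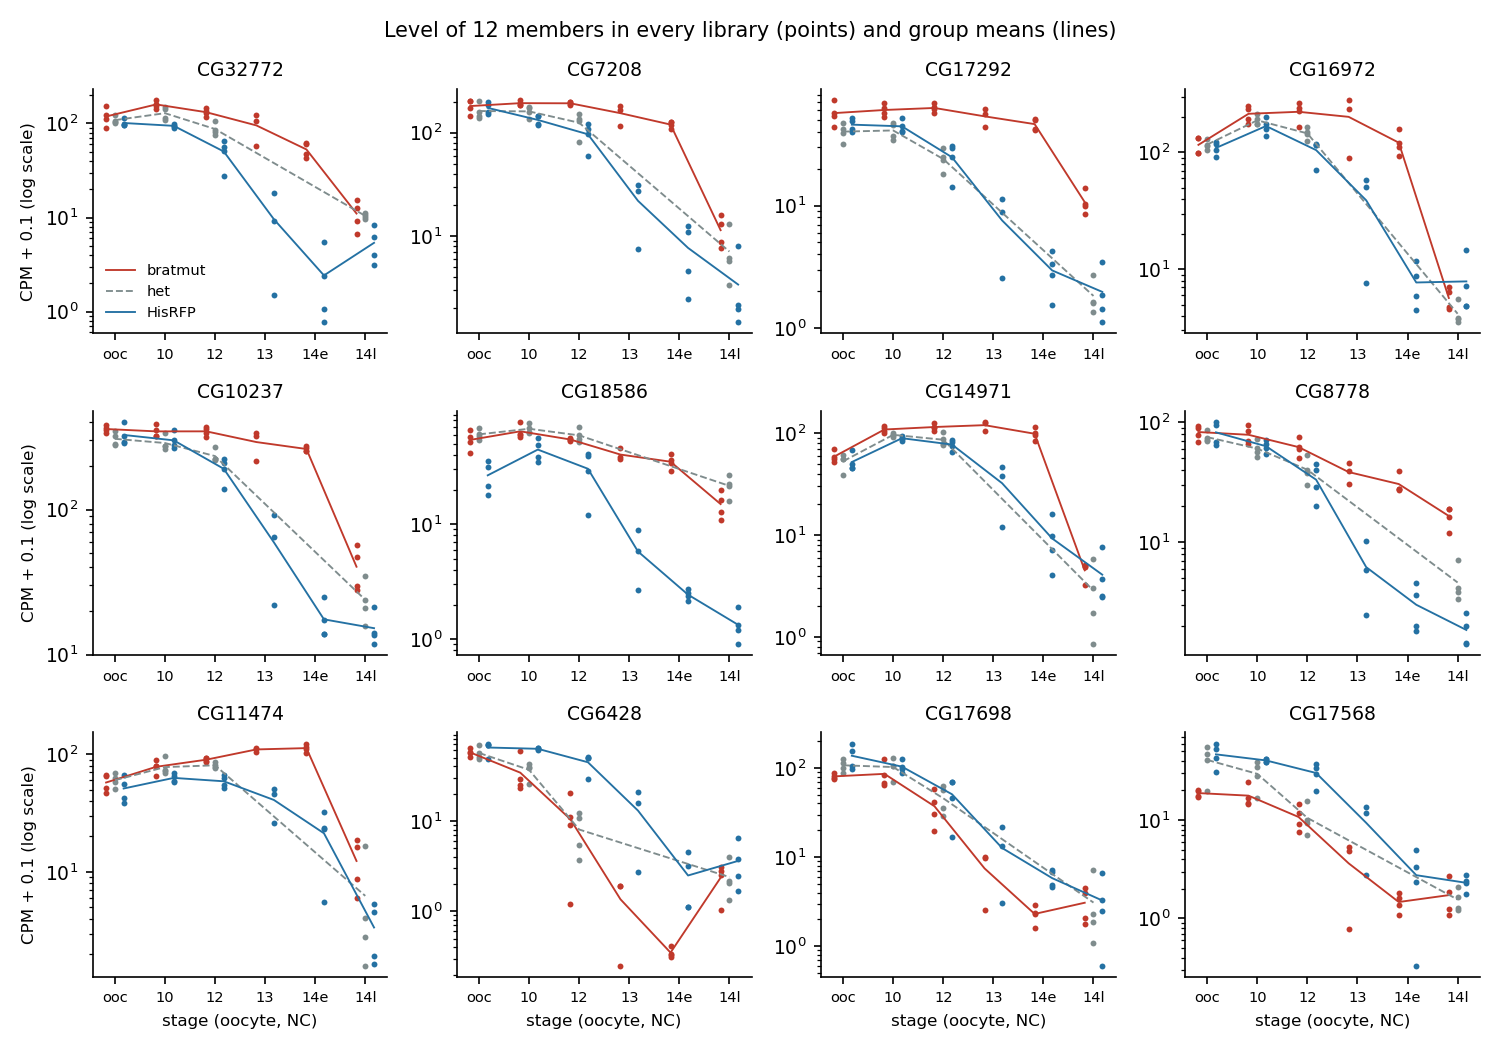
Level of 12 members in every library (points, CPM plus 0.1, log scale) and group means (lines) from oocyte to later NC14. In the panels of CG32772 to CG11474 the bratmut line lies above the HisRFP line at early NC14 and is lower again by later NC14, and in those of CG6428, CG17698 and CG17568 it lies below the HisRFP line at early NC14.

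Some members were not lower at all at early NC14 than at NC10 in bratmut. They were CG11474, CG32365, CG9663, CG14435 and CG4404, with 144%, 114%, 110%, 109% and 103% of their bratmut NC10 level left (the 5 were named after their values were seen). In HisRFP these genes had 33.8%, 71.4%, 52.3%, 21.6% and 23.3% left. CG11474 (FBgn0034688) had 111, 123, 102 and 114 CPM at early NC14 in bratmut and 23.3, 32.5, 5.50 and 23.5 CPM in HisRFP embryos. CG14435 had 165, 147, 179 and 125 CPM in bratmut and 30.3, 29.7, 24.4 and 29.4 CPM in HisRFP embryos. CG4404 had 99.9, 110, 103 and 109 CPM in bratmut and 17.9, 18.4, 18.8 and 19.1 CPM in HisRFP embryos. In each of these 3 genes bratmut and HisRFP embryos were far apart, and the HisRFP level alone was well below its NC10 level. CG9663, an ABC transporter gene, had 38.6, 31.7, 31.1 and 41.4 CPM in bratmut and 15.7, 27.3, 8.32 and 10.8 CPM in HisRFP, without overlap. Its call (log2 fold change 1.18, edgeR adjusted p = 0.0316) was lost without bratmut A, C or D and without HisRFP A, C or D (edgeR adjusted p 0.0557 to 0.0809).

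CG32365 and CG42674 were, with CG9663, the members lost most slowly in HisRFP, where 71.4%, 69.3% and 52.3% of the NC10 level was left at early NC14. CG32365 had 280, 223, 288 and 249 CPM in bratmut and 179, 166, 120 and 88.1 CPM in HisRFP, apart in level but with a log2 fold change of 0.86, under the limit of 1. Without HisRFP A it was 1.05. CG42674 had a log2 fold change of 0.13 (SE 0.32) and was not called. The fastest losses in HisRFP were those of CG6927, CG9896 and CG4991, with 0.162%, 0.285% and 0.299% left. Of these, CG6927 (log2 fold change 2.67, edgeR adjusted p = 0.0125) and CG4991 (2.37, edgeR adjusted p = 0.00591) were called higher in bratmut, at low levels. CG6927 had 1.07, 1.16, 0.755 and 1.2 CPM in bratmut and 0.0393, 0.293, 0.185 and 0.122 CPM in HisRFP.

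The 8 members highest in HisRFP at NC10 were CG6770, CG7627, CG10254, CG8180, CG6966, CG10237, CG9917 and CG2841. At early NC14, CG10237 and CG2841 were called higher. CG2841 had 63.1, 67.9, 60.7 and 41.1 CPM in bratmut and 3.70, 8.59, 4.90 and 11.2 CPM in HisRFP (log2 fold change 3.04, SE 0.31, edgeR adjusted p = 0.000121). The other 6 had log2 fold changes between 0.05 (CG9917) and 1.0 (CG7627) and did not pass. For CG7627, an ABC transporter gene, the value was 1.39 without HisRFP D, with an edgeR adjusted p of 0.0326. CG9917 had 14.1, 20.6, 14.0 and 15.2 CPM in bratmut, inside the range of 6.24 to 25.7 CPM in HisRFP.

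A small number of members went the other way. CG6428 (FBgn0029689, X, 3965435 to 3968655) had 0.237, 0.232, 0.315 and 0.213 CPM in bratmut at early NC14 and 1.02, 3.06, 1.02 and 4.46 CPM in HisRFP embryos. All bratmut embryos were below all HisRFP embryos (log2 fold change -3.22, SE 0.58, edgeR adjusted p = 0.00358). At NC12 it had 8.91, 1.11, 20.3 and 10.9 CPM in bratmut, 12.2, 3.55, 10.6 and 5.35 CPM in het and 48.9, 51.0, 28.6 and 49.1 CPM in HisRFP embryos. The bratmut and het embryos overlapped, and both lay below HisRFP. The bratmut to HisRFP difference at NC12 was -2.16 on the log2 scale (SE 0.58, edgeR adjusted p = 0.045). That call was lost without bratmut A or D, and without HisRFP A, B or D (edgeR adjusted p 0.0919 to 0.116). The bratmut to het difference was 0.35 (SE 0.66, edgeR adjusted p = 0.875).

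CG17698 (FBgn0040056, 3L, 23737960 to 23749058), with the RefSeq synonym CAMKIIb, had 2.22, 2.82, 2.27 and 1.49 CPM in bratmut at early NC14 and 4.48, 4.74, 6.61 and 6.97 CPM in HisRFP. The groups did not overlap and were close together (log2 fold change -1.41, SE 0.31, edgeR adjusted p = 0.0106). The remaining members with the smallest fold changes were CG31249 (-1.51), CG17568 (-0.93), CG10738 (-0.90), CG14545 (-0.79), CG45071 (-0.74) and CG3548 (-0.64 on the log2 scale), none of them called. CG17568 was called in 2 other fits, at -1.31 without HisRFP C, and CG10738 at -1.10 without HisRFP D.

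CG17568 (FBgn0032763, 2L, 19179749 to 19181702) lies next to brat (2L, 19133816 to 19179758) on the opposite strand and shares 10 exon bases with it. At NC12 it had 11.6, 8.97, 14.6 and 7.38 CPM in bratmut, 15.6, 9.89, 9.32 and 6.96 CPM in het and 34.0, 36.7, 19.8 and 29.5 CPM in HisRFP embryos. Bratmut and het embryos overlapped, and all were below HisRFP. The bratmut to HisRFP log2 fold change at NC12 was -1.53 (SE 0.24, edgeR adjusted p = 0.0035), and the bratmut to het one was -0.01 (SE 0.28). Of the other members near brat, CG10561 lies 17246 bases away, with 8.07, 6.30, 4.91 and 5.25 CPM in bratmut and 0.354, 4.28, 0.601 and 2.07 CPM in HisRFP at early NC14. CG10237 lies 256092 bases away. Which of these genes the deficiency removes was not tested, and bratmut and an unknown number of the het mothers carried it.

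At the earlier stages fewer members passed. At NC12, 3 of 104 were called higher in bratmut (3.5% of all genes tested) and 2 lower (2.14% of all genes tested), with a median log2 fold change of 0.04. The 3 were CG32772 (1.36, SE 0.20), CG17292 (1.31, SE 0.19) and CG16972 (1.06, SE 0.18), and the 2 lower were CG6428 and CG17568 above. CG16972 fell just under the limit without bratmut A or HisRFP C (0.97 and 0.94). Without HisRFP A, or without HisRFP B, 5 members were called higher and 1 lower. Against het embryos at NC12, 1 of 104 was higher (1.18% of all genes tested) and 0 were lower (0.566% of all genes tested). There were 20 members at an unadjusted p under 0.05 in either direction (17% of all genes tested), and DESeq2 called 0 lower. That gene was CG17292, at a log2 fold change of 1.36 (SE 0.14, edgeR adjusted p = 0.00141). Without bratmut D a further member passed, giving 2.

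At NC13, 7 of 104 members were called higher (2.87% of all genes tested) and 0 lower (1.04% of all genes tested). At an unadjusted p under 0.05 there were 25 in either direction (18.6% of all genes tested), and DESeq2 called 22 higher and 1 lower. The median log2 fold change was 0.60 over the members and -0.02 over all genes tested. The 7 were CG17292 (2.80), CG7208 (2.78), CG18586 (2.78), CG8778 (2.60), CG14435 (1.67), CG4404 (1.52) and CG11474 (1.37 on the log2 scale), with edgeR adjusted p between 0.0102 and 0.0382. Every bratmut embryo was above every HisRFP embryo for 20 members (16% of all genes tested) and below for 1 (10.1%). The count rested on single embryos. It was 11 without HisRFP C, 4 without HisRFP D, 1 without bratmut C, and 0 without bratmut D or without HisRFP A, and none of the 7 genes was called under every alternative. The median log2 fold change lay between 0.18 (without HisRFP C) and 1.18 (without HisRFP D).

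All 7 genes called at NC13 and all 3 called higher at NC12 were among the 33 called at early NC14, of which they make up 21.2% and 9.09%. These comparisons use different embryos. All 33 had a positive log2 fold change at NC13, with a median of 1.63. Over 103 members the log2 fold changes at NC13 and early NC14 had Pearson's r = 0.838 and Spearman's rho = 0.802, across genes of the same libraries, which are not independent replicates. Not every member kept its direction: CG31249, with -1.51 at early NC14, had 1.61 at NC13, and neither value was called.

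**Figure D5:**
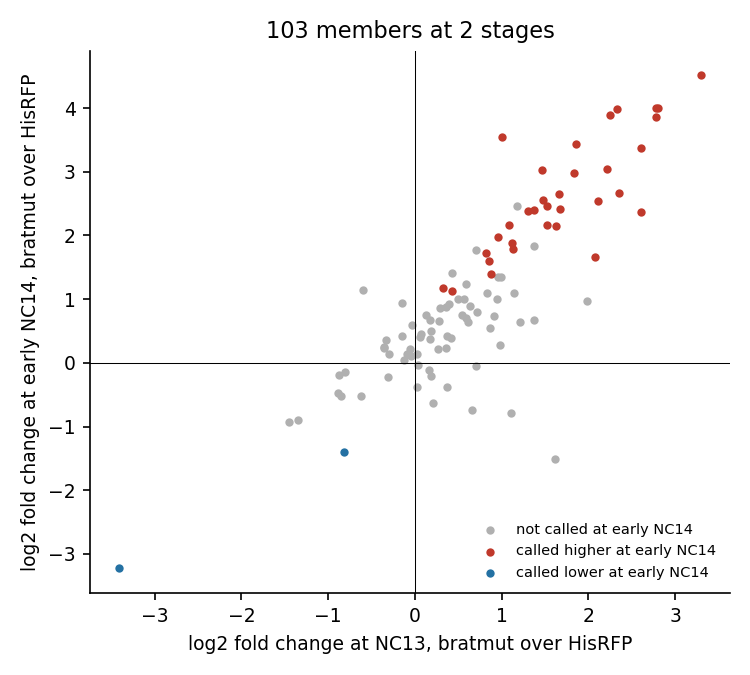
Log2 fold change at early NC14 (vertical) against that at NC13 (horizontal), bratmut over HisRFP, for the 103 members tested at both, coloured by call at early NC14. Points rise together (r = 0.838), and all 33 genes called higher at early NC14 lie to the right of 0 at NC13.

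The change between NC12 and early NC14 was compared between genotypes in a single model, as the interaction of genotype and stage. It was called higher for 21 of 104 members (3.68% of all genes tested), meaning a smaller loss or a gain in bratmut, and lower for 0 (0.392% of all genes tested). There were 36 at an unadjusted p under 0.05 in either direction (21.8% of all genes tested), and DESeq2 called 0 lower. The median difference was 0.67 over the members and -0.12 over all genes tested on the log2 scale. Of the 286 comparison genes, chosen by the same CPM conditions, 60 (21.0%) were called higher and 0 lower, with a median of 0.82. The members' share of higher calls was 20.2%. The rule required a fall in HisRFP and set no condition on bratmut, so the choice of members favours higher values here. All genes tested were not chosen in this way. The values of CG32772 (3.01, SE 0.57), CG10237 (2.96, SE 0.20), CG18586 (2.93, SE 0.36), CG7208 (2.92), CG16972 (2.81), CG14971 (2.79, SE 0.35), CG17292 (2.58, SE 0.34), CG8778 (2.39, SE 0.36) and CG2841 (2.25) were among the largest.

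Within each genotype the loss over the same interval was called for 82 of 104 members in bratmut (27.2% of all genes tested were lower) and for 101 of 104 in HisRFP (28.9%). The median log2 change was -2.52 in bratmut and -3.40 in HisRFP. The rule chose genes that fall in HisRFP, so the HisRFP share is a description. In bratmut, CG11474 had a log2 change of 0.53 (SE 0.07) and CG14971 of -0.02 (SE 0.11), against -1.23 (SE 0.40) and -2.84 (SE 0.34) in HisRFP.

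The bratmut embryos were compared with HisRFP embryos 1 stage younger to describe the size of the delay. At early NC14 the share of the NC10 level left in bratmut was above that of HisRFP at NC13 for 27 of 104 members, with medians of 8.79% in bratmut and 14.2% in HisRFP. The HisRFP shares are taken from the HisRFP NC10 means that chose the members, so these comparisons of shares are a description of the delay with no test. Among the 33 called genes 23 were above, with medians of 36.5% in bratmut and 16.4% in HisRFP. Among the 69 members with no call 4 were above (5.90% in bratmut, 13.8% in HisRFP). At NC13 the bratmut share was above the HisRFP share at NC12 for 10 members, all of them among the 33. The 33 were called on early NC14 levels, so their shares at that stage describe the call.

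In summed level the 33 called genes had 1730 ± 83.1 CPM in bratmut and 252 ± 74.1 CPM in HisRFP at early NC14. At NC10 they had 4097 ± 534 CPM in bratmut, 3744 ± 255 CPM in het and 3389 ± 105 CPM in HisRFP (SD, n = 4). Bratmut (3760 to 4891 CPM) and HisRFP (3297 to 3534 CPM) did not overlap at NC10, so these genes were already somewhat higher in bratmut then. The HisRFP NC10 values chose the members, so this is a description. The 69 members with no call had 910 ± 94.9 CPM in bratmut and 650 ± 234 CPM in HisRFP at early NC14 (SD, n = 4), and these groups overlapped.

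By later NC14 most of the retained RNA was gone from bratmut embryos. Between early and later NC14, 62 of 103 members tested fell in bratmut (19% of all genes tested) and 4 rose (26.6% of all genes tested), with a median log2 change of -1.39. CG32365 fell by 5.06, CG14971 by 4.39 and CG16972 by 4.35 on the log2 scale. Those that rose were CG6428 (3.24), CG31249 (2.99), CG45071 (2.70) and CG1812 (1.44 on the log2 scale). CG6428 alone was called under every alternative, and without later NC14 D 2 members rose. By group means alone, 17 of 104 members were higher at later than at early NC14 in bratmut. In HisRFP 39 of 104 were, and the rule had used the HisRFP values of later NC14. From NC10 to later NC14, 104 of 104 members fell in bratmut (31.1% of all genes tested) and 104 of 104 in het embryos (32.6% of all genes tested). The median log2 change was -4.41 in bratmut and -4.50 in het, and neither genotype's values entered the rule.

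Against het embryos at later NC14, 2 of 88 members tested were higher in bratmut (1.54% of all genes tested) and 0 were lower (0.415% of all genes tested). There were 10 at an unadjusted p under 0.05 in either direction (19.9% of all genes tested), and DESeq2 called 0 lower. The median log2 fold change was 0.05, equal to that of all genes tested. Of the 272 comparison genes tested, 18 were higher (6.62%) and 0 lower, with a median log2 fold change of 0.22. CG17292 had 13.8, 9.83, 8.48 and 10.2 CPM in bratmut and 1.5, 1.53, 1.25 and 2.63 CPM in het embryos, with no overlap (log2 fold change 2.65, SE 0.31, edgeR adjusted p = 0.00214). CG8778 had 18.7, 16.2, 11.8 and 19.0 CPM in bratmut and 3.75, 4.05, 3.25 and 7.02 CPM in het embryos, again with no overlap (log2 fold change 1.91, SE 0.30, edgeR adjusted p = 0.00991). Both genes were among the 33 called at early NC14, of which 25 of the 32 tested here had a positive log2 fold change (median 0.64). CG17292 was the only member called against het at NC12 and at later NC14. RNA retained in both bratmut and het embryos, as for CG18586 above, does not show in a comparison with het. Few calls against het therefore do not measure how far bratmut had reached the HisRFP level.

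The other genes of the pathway were read from lists of named genes. Of 15 clearance genes, 14 were tested at early NC14, 1 was called higher in bratmut (brat, log2 fold change 3.26) and 1 lower (plu, a PNG kinase subunit gene, -1.94), with a median of 0.28. The Smaug gene smg had 0.92 (edgeR adjusted p = 0.00637), under the limit of 1. Of 18 early zygotic genes, 17 were tested, 1 was higher (sc, a proneural gene) and 1 lower (prd, a pair-rule gene), with a median of -0.42.

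In the annotation (BDGP6.54) all 104 members are protein-coding. Their median coding length is 1549.5 bases and their median 3′ untranslated region is 383.5 bases, against 1744.5 and 443 bases in the 286 comparison genes and 1446 and 279 bases in 7539 protein-coding genes tested at early NC14. Within the members, the median 3′ untranslated region is 322 bases for the 33 called genes and 429 bases for the 69 with no call. On the X chromosome lie 22 of 104 members (21.2%), 11 of the 33 called (33.3%) and 10 of the 69 with no call (14.5%), against 25.5% of the 286 comparison genes, 21.9% of all protein-coding genes called higher at early NC14 and 17.2% of all protein-coding genes tested. Members share exon bases with a gene on the opposite strand in 36 cases and on the same strand in 9. Over 20% of the exon bases are shared with a single other gene in 6 members. Among them are CG12945 (48.7% with CG8500) and CG6293 (25.5% with Nuak), both called higher at early NC14, and CG45071 above. CG6927 and CG32772, both called higher, lie 281 bases apart on the X, and CG7627 and CG17292 lie 7985 bases apart on 2L.

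Just inside the NC10 limit of the rule were CG14882 (22.5 CPM) and CG4733 (23.6 CPM), and just outside CG18262 (19.4 CPM) and CG11883 (19.3 CPM). For the ratio of NC10 to oocyte, CG3902 (0.264), an acyl-CoA dehydrogenase gene, and CG4991 (0.294) were just inside, and CG4476 and CG17896 (0.152 each) outside. For the ratio of later NC14 to NC10, CG4404 (0.0619) and CG2614 (0.0615) were just inside, and CG11807 (0.0636) and CG5521 (0.0638) outside.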

How the data were processed

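Single oocytes and embryos were sequenced as 75-base TruSeq v2 reads on a NextSeq500. Per the labels and methods, the authors aligned reads to dm6 with HISAT2 2.1.0, discarded multiply mapped reads, and counted per gene with featureCounts 1.5.3 (unstranded, annotation r6.20). The deposited values are whole read counts with no normalization. Symbols were matched for 99.4% of gene IDs, and genes without one could not be members.

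CPM used library totals. Tests used edgeR 4.0.16 (TMM, quasi-likelihood) in R 4.3.3 on the libraries of each comparison, with genes of at least 50 reads, Benjamini-Hochberg adjustment over all of them, and no batch term. The fit was tested on simulated data. Alternatives were DESeq2 1.42.0, RLE factors, library totals, other filters, all 62 libraries in 1 fit, a replicate block and each library left out. TMM-scaled CPM and leaving out bratmut NC10 A for shares were added after seeing the data.

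Named genes were the 8 highest at NC10 in HisRFP, the 8 largest and 8 smallest fold changes at early NC14, all lower calls, up to 5 calls against het at later NC14, those nearest each limit of the rule, and the 3 largest and smallest HisRFP shares left. Others were named after their values were seen. The members and lists were chosen with earlier results of these data known. No replicate pair agreed within sampling noise. Sequences were not analysed here.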

Additional observations from a re-analysis of the deposited data

Results flagged for a closer look

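Among groups of 4 libraries, the summed member level was checked for a library whose gap to its neighbour takes up most of the group's range. Of 14 groups checked, 2 had one, replicate D of het at later NC14 (618 CPM) and replicate D of HisRFP at later NC14 (651 CPM). For 60 pairs of a named gene and an early NC14 group, the highest value also had to be at least 5 CPM. The 2 flagged were CG9917 in bratmut early NC14 B (20.6 CPM) and CG8778 in bratmut early NC14 B (39.2 CPM). Chance gives about 1 such group in 20 where no CPM limit is set. Pairs under the limit could not be flagged, so the count of pairs cannot be set against that rate.

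The change from NC12 to early NC14 differed between bratmut and HisRFP, by the interaction term in edgeR, for 21 members. The fall in HisRFP that the rule required favours such differences. Among the named genes the difference on the log2 scale was 3.01 for CG32772, 2.96 for CG10237, 2.93 for CG18586, 2.92 for CG7208, 2.81 for CG16972, 2.79 for CG14971, 2.58 for CG17292, 2.39 for CG8778 and 2.25 for CG2841, each higher in bratmut.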

How the results depend on the processing

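At early NC14 the count of members called higher stayed between 31 and 38, and the interaction count between 18 and 28, under every alternative. At NC12, 1 member was called lower instead of 2 with RLE factors or library totals, and leaving out 1 library gave 2 to 5 higher and 1 to 3 lower. At NC13, 4 were called higher with library totals, 22 with DESeq2, 19 with no filter and 28 with all 62 libraries in 1 fit, against 7, and 0 to 11 with 1 library left out. Called lower at NC13 were 1 with DESeq2, 1 with no filter and 3 with all 62 libraries, against 0. All 62 libraries gave 4 lower at early NC14 and 6 higher against het at later NC14. Against het at NC12, 2 were higher with DESeq2, filterByExpr, no filter and all 62 libraries, and 1 to 2 with 1 library left out. From early to later NC14 in bratmut, 2 to 5 rose with 1 library left out. From NC10 to later NC14 the median log2 change with library totals was -4.98 in bratmut and -4.96 in het, and with 1 library left out it was -4.88 to -4.39 in het. CPM scaled by TMM gave sums of 2959 CPM for bratmut early NC14 and 10386 CPM for HisRFP NC10, and a bratmut median share of 10.6% at early NC14. The rule itself took in 97 to 123 members with 1 library left out. Early NC14 values near 0 changed sign for CG9917 (-0.072 with all 62 libraries, -0.20 to 0.39 with 1 left out) and CG42674 (-0.11 to 0.38). Over all genes, counts at NC13 ran over 7 to 660 higher and 0 to 195 lower, against 210 and 76 (reported counts follow in parentheses). At early NC14 there were 204 to 722 lower (343), against het at later NC14 62 to 213 higher (119) and 6 to 155 lower (32), against het at NC12 50 to 103 higher (81) and 30 to 94 lower (39), at NC12 156 to 268 higher (239) and 77 to 169 lower (146), and in the interaction 251 to 464 higher (300) and 15 to 86 lower (32). The causes were not tested.

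Within the comparisons tested, libraries of the same replicate letter shared little deviation on average (mean correlation -0.176 to 0.048). Single pairs ran from -0.46 to 0.53, so these means do not decide whether letters share a batch. Het and HisRFP at later NC14, where D stood apart in both, were not compared in this way. With the replicate block 1 member was lower at NC12, 0 were higher at NC13, 33 at early NC14, 18 in the interaction, and 2 against het at NC12 and 2 at later NC14. The 104 members fell from NC10 to later NC14 in bratmut and het under the block too.

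Depth was lowest in het libraries of later NC14, and 16 of 104 members had too few reads to be tested between bratmut and het at that stage.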
